A study of Mus musculus with 16 samples.

Results

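The genes described here are the histone methyltransferases and demethylases of mouse colon tumour organoids, taken by symbol: every KMT2 to KMT5, SETD, PRMT, KDM, EHMT, NSD, SUV39H, EZH, DOT1L, SMYD and PRDM gene of the deposited feature table. The rule found 72 of 31053 symbols, of which 39 are methyltransferase genes, 18 demethylase genes, 14 PRDM genes and 1 (Kdm6bos) an antisense transcript of Kdm6b. The organoids came from AOM/DSS tumours (azoxymethane and dextran sulfate sodium, a carcinogen and an irritant that together induce colon tumours in mice) at passage 14, and single cells were profiled with the 10x Chromium 3′ assay. Control organoids are labelled KMT9wt/wt with minus TAM, and knockout organoids KMT9ko/ko with plus TAM. The deposited tables of both groups also bear day 5 in their names. The labels spell out neither TAM nor the Cre driver, the deleted exons or the number of animals, and controls that received TAM were not analysed here. Each group has 8 records but 1 matrix, so each group is 1 library. No difference between the groups could be tested, and every interval below is at 95% and covers counting error only.

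Histone methyltransferases add methyl groups to lysines or arginines of histone tails, taking them from S-adenosylmethionine, and demethylases of the KDM families remove them from lysines. Methylation of H3K4, H3K36 and H3K79 is found at transcribed genes, whereas H3K9 and H3K27 methylation mark silent chromatin, the latter written by PRC2 with EZH2 or EZH1 as its catalytic subunit. KMT9, the enzyme deleted here, is a dimer of N6AMT1 and TRMT112 that methylates H4K12. Several genes of the list, among them Setd3 and Setd6, are known mainly for methylating proteins other than histones, and many PRDM proteins act as transcription factors without known enzyme activity. The question the design raises for these genes is whether any of them was higher in the library that lacks KMT9.

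Kept cells numbered 2629 in the control and 1481 in the knockout library, with 68666384 and 37301715 UMIs (unique molecular identifiers, 1 per captured transcript) and a median of 24604 and 24184 UMIs per cell. The kept cells shared 166 barcodes with the other matrix in the control library (6.31%) and 325 in the knockout library (21.9%). N6amt1 was at 34.0 CPM (UMIs per 1000000 of the library) in the control and at 6.11 CPM with the gene deleted, a log2 ratio of -2.48, and Trmt112 was at 209 and 165 CPM (-0.34). Since the deleted exons are not given, 3′ reads of N6amt1 may lie outside them. Epithelial markers were at 14296 and 16125 CPM in sum, whereas the 7 fibroblast markers were at 0.117 and 0.268 CPM with 5 of 7 at 0, and the 8 immune markers at 10.4 and 14.7 CPM with 2 of 8 at 0. The 6 endothelial markers summed to 8.74 and 19.5 CPM, where Cdh5 alone was at a counted level and higher (log2 ratio 1.22). Differentiation markers differed: the 12 colonocyte markers summed to 78.1 and 331 CPM, with 4 of 5 measured ones higher (median 2.23) and 1 lower. A cluster of 31 cells led by colonocyte markers held 4 control and 27 knockout cells, and 25 of the 31 carried a shared barcode. The part of these cells in the colonocyte sums was not tested. The 8 goblet markers summed to 14.5 and 7.10 CPM. The 38 measured S phase genes had a median log2 ratio of -1.16 and the 51 G2 and M phase genes -0.61, so fewer cycling cells and less cell cycle RNA per cell cannot be told apart in these sums.

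Ezh2, Suv39h1 and Suv39h2 were among the genes higher in cells scored as S phase, and their promoters are shown because short E2F motifs, known from genes of DNA replication, were searched in them. Each window runs from 250 bases before to 50 bases after a RefSeq transcription start on build GRCm38.p6, on the reverse strand, at chr6:47594981-47595280 for Ezh2, chrX:8074312-8074611 for 1 of 2 starts of Suv39h1, and chr2:3474937-3475236 for Suv39h2. Capitals mark a match to TTTCGCGC, TTTGGCGC, TTTCCCGC or TTTGCCGC on either strand.
Ezh2: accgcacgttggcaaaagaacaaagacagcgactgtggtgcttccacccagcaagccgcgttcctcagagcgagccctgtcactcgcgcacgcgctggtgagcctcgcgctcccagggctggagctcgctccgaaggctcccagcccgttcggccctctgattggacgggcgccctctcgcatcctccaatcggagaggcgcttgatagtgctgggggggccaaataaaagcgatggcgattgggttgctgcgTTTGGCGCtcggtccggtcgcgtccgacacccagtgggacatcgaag
Suv39h1: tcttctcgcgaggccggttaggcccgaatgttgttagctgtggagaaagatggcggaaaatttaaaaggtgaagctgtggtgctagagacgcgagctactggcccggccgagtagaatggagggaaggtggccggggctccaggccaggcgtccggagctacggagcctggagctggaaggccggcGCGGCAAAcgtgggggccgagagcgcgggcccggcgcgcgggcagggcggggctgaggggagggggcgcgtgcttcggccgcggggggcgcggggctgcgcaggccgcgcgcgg
Suv39h2: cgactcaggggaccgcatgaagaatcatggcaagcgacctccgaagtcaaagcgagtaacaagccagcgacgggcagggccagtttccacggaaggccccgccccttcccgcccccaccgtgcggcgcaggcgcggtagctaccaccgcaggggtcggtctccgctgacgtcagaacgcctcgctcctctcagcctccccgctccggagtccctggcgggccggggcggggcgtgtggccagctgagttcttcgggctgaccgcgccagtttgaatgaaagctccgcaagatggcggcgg
Ezh2 holds TTTGGCGC beginning 3 bases past the start, and Suv39h1 holds GCGGCAAA, the reverse complement of TTTGCCGC, beginning 64 bases before it. The Suv39h2 window and that of the other Suv39h1 start hold no match. Of all 32851 promoter windows 744 (2.26%) held such a motif. Promoters were listed for 55 of the 72 genes, and 4 held a match (Ezh2, Suv39h1, Kmt5c and Prdm4), the first 2 being among the 4 genes that were higher in S-like cells, while Kmt5c and Prdm4 were not. Nsd2, which was also higher in S-like cells, has no listed promoter and was not searched, so the matches were in 2 of 3. By gene, 7.27% of the 55 held an E2F match, beside 2.6% of 27025 genes with a promoter. The motif TTTGAA, part of the CHR element of mitotic genes, lay in 17.9% of all windows. By gene it lay in 20.2% of the 27025 and in 5 of the 55 (9.09%), Suv39h2 and Setd6 among them. A match is a description of the letters and not evidence of binding.

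Of the 72 genes, 54 had a mean of 5 or more CPM over both libraries and are called measured: 36 methyltransferase, 14 demethylase and 4 PRDM genes. Since the 3′ assay counts 1 UMI per molecule, CPM levels were compared between genes without division by length. Prmt1, the main enzyme of asymmetric arginine dimethylation, was by far the most abundant, at 425 CPM in control and 403 CPM in knockout cells. Smyd2, a lysine methyltransferase of p53 among other proteins, followed at 101 and 78.5 CPM, and Kmt2e, the KMT2 family member also called MLL5, at 71.4 and 63.4 CPM. Among demethylases, the H3K4 demethylase Kdm1a (LSD1) stood at 55.4 and 61.2 CPM and the H3K27 demethylase Kdm6b at 41.5 and 72.0 CPM. Kdm5a, an H3K4 demethylase of another family than Kdm1a, was at 42.3 and 54.2 CPM. All 72 genes together took 0.183% of control and 0.177% of knockout UMIs.

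Another 12 genes had UMIs in both libraries below that level (Kdm1b, Kdm4c, Kdm4d, Kdm6bos, Kdm8, Smyd4 and 6 PRDM genes). Prdm6 and Prdm12 had 1 UMI each in the control library alone. Prdm13, Prdm14, Prmt8 and Smyd1 had none in either, with upper counting bounds of 0.0537 CPM in control and 0.0989 CPM in knockout cells. Smyd1 is known from heart and skeletal muscle, Prmt8 from brain and Prdm14 from germ cells.

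**Figure D1:**
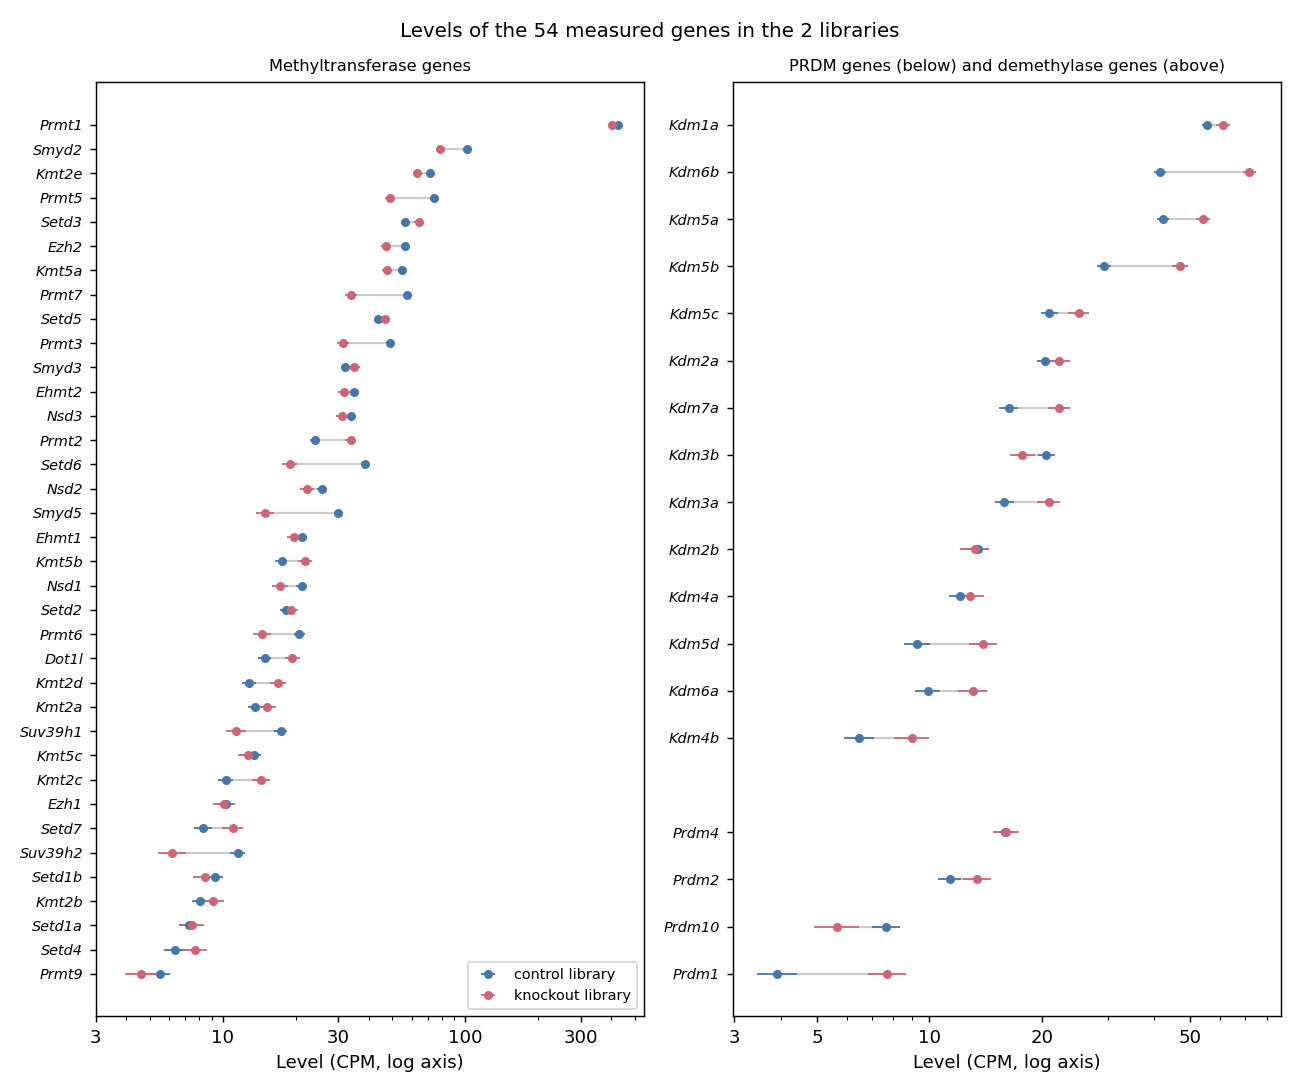
Level of each of the 54 measured genes in CPM (log axis) in the control and the knockout library, methyltransferase genes on the left, demethylase and PRDM genes on the right. Bars are 95% counting intervals. Prmt1 lies at 425 and 403 CPM, far above the next gene, Smyd2, at 101 and 78.5 CPM.

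Over all kept cells, no methyltransferase gene of the 36 measured was higher by 1.5-fold in the knockout library. By that size, which is a threshold and not a test, 7 were lower. Among all 54 genes, 4 were higher, against a background of 8.6% of 9185 genes at the same level, and 7 were lower, against 10.4%. The 4 were 3 demethylase genes and Prdm1. Without the cluster led by colonocyte markers the counts were also 4 and 7. The median log2 ratio of the 54 genes was 0.05, beside -0.05 for all genes, and 29 of 54 lay above 0, where 45.2% of all genes did. The counts of genes past 1.5-fold were thus near the background. By side, 12 of 14 demethylase genes lay above 0. The methyltransferase genes lay nearer to all genes, with 14 of 36 above 0 and a median of -0.11.

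**Figure D2:**
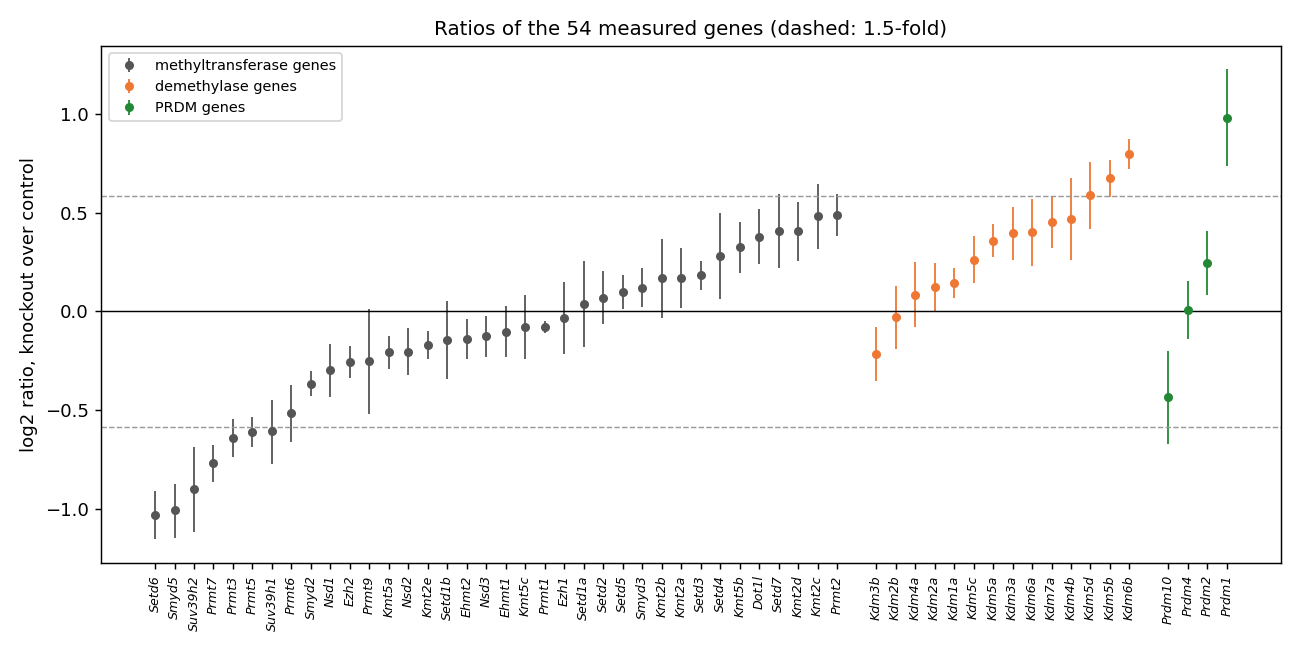
Log2 ratio of knockout over control CPM for the 54 measured genes, ordered within methyltransferase, demethylase and PRDM genes. Bars are 95% counting intervals and dashed lines mark 1.5-fold. The 7 genes below the lower line are all methyltransferase genes, and 12 of 14 demethylase genes lie above 0.

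The arginine methyltransferases were lower in 6 of 7 measured genes, with a median log2 ratio of -0.52, and 3 of them passed 1.5-fold. Among all genes, 45.2% lay above 0 and 10.4% were 1.5-fold lower. The 6 include Prmt1 (-0.08) and Prmt9 (-0.25, -0.52 to 0.01). Prmt7 (chr8:106210936-106252794, forward strand, mm10), which makes monomethylarginine, was at 57.7 CPM in control and 33.9 CPM in knockout cells, a log2 ratio of -0.77 (-0.86 to -0.68). Prmt3 (chr7:49778346-49858265, forward strand), known for methylating a ribosomal protein, was at 48.9 and 31.4 CPM, a log2 ratio of -0.64. Prmt5 (chr14:54507187-54517525, reverse strand), the main enzyme of symmetric arginine dimethylation, was at 74.5 and 48.8 CPM, a log2 ratio of -0.61. The counting intervals of these log2 ratios were -0.74 to -0.54 for Prmt3 and -0.69 to -0.53 for Prmt5. Without cells whose barcode is in both matrices, Prmt5 came to -0.54 and fell short of 1.5-fold. Prmt6 lay just outside the threshold, at 20.7 and 14.5 CPM (log2 ratio -0.52). Prmt2 was the 1 gene of the family on the other side, at 24.0 and 33.7 CPM (0.49).

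Of the lysine methyltransferases, Setd6 and Smyd5 had the lowest ratios. Setd6 (chr8:95715881-95719010, forward strand), which methylates the NF-kappaB subunit RelA, was at 38.5 CPM in control and 18.9 CPM in knockout cells, 2.04-fold lower (log2 ratio -1.03, -1.15 to -0.91). Smyd5 (chr6:85431989-85446435, forward strand), a SET and MYND domain protein, was at 29.9 and 14.9 CPM, 2.01-fold lower (-1.01, -1.14 to -0.87). These 2 were the only genes of the 54 past 2-fold in either direction. Of the rest of the SMYD family, Smyd3 stood at 32.0 and 34.7 CPM, and Smyd4, at 5.69 and 3.75 CPM, was 1.52-fold lower but under the level counted.

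All 4 H3K9 methyltransferases lay below 0, with a median log2 ratio of -0.37, where 45.2% of all genes lay above 0. Suv39h2 (chr2:3455815-3475031, reverse strand) was at 11.5 and 6.19 CPM (-0.90, -1.12 to -0.69) and Suv39h1 (chrX:8061171-8074760, reverse strand) at 17.3 and 11.4 CPM (-0.61, -0.77 to -0.45). Both enzymes trimethylate H3K9 in pericentric heterochromatin. Ehmt1 and Ehmt2, which form the H3K9 dimethylating complex of euchromatin, differed little, at 21.2 and 19.8 CPM and at 34.9 and 31.7 CPM (-0.10 and -0.14). The interval of Ehmt1 included 0 (-0.23 to 0.03).

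The writers of the other marks all stayed within 1.5-fold. Among the H4K20 enzymes, Kmt5a, which adds the first methyl group, was at 54.8 and 47.4 CPM (-0.21), whereas Kmt5b and Kmt5c, which add further ones, were at 17.5 and 21.9 CPM (0.32) and at 13.5 and 12.7 CPM (-0.08). Ezh2 was at 56.4 and 47.3 CPM (-0.25) and Ezh1 at 10.4 and 10.1 CPM (-0.03). The 4 H3K36 enzymes had a median of -0.16, from Nsd1 at 21.2 and 17.2 CPM (-0.30), through Nsd2 (25.7 and 22.3 CPM) and Nsd3 (33.9 and 31.0 CPM), to the trimethylase Setd2 at 18.2 and 19.1 CPM (0.07). Dot1l, the H3K79 methyltransferase, was at 14.9 and 19.4 CPM (0.38). The 8 genes grouped as H3K4 methyltransferases had a median of 0.17, with 6 of 8 above 0. They include Kmt2e (-0.17), and enzyme activity was not measured. Kmt2c, a catalytic subunit of enhancer COMPASS complexes, had the highest ratio of them, at 10.3 and 14.3 CPM (0.48). Setd3, an actin histidine methyltransferase, was at 56.5 and 64.2 CPM (0.18).

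Demethylase genes were on the higher side: 12 of 14 lay above 0, with a median log2 ratio of 0.38, beside 14 of 36 and -0.11 for the methyltransferase genes. Kdm6b (chr11:69398508-69413675, reverse strand), an H3K27 demethylase also called JMJD3, was at 41.5 CPM in control and 72.0 CPM in knockout cells, 1.74-fold higher (log2 ratio 0.80, 0.72 to 0.87). Its X-linked relative Kdm6a (UTX) was at 9.89 and 13.1 CPM (0.40). Kdm5b (chr1:134560171-134635285, forward strand), an H3K4 demethylase, was at 29.4 and 46.9 CPM (0.67, 0.58 to 0.77), so the 2 largest ratios among demethylases belonged to erasers of a silent and of an active mark. Kdm5d, the Y-linked H3K4 demethylase (chrY:897788-956786, forward strand), was at 9.26 and 13.9 CPM (0.59) and stood at the threshold. Under TMM scaling it came to 0.56, with a stricter cell filter to 0.55, without doublet removal to 0.57 and without shared barcodes to 0.51, so 3 genes in place of 4 were then past 1.5-fold on the higher side, and without shared barcodes 6 in place of 7 on the lower side.

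All 5 measured H3K4 demethylases lay above 0 (median 0.36), and so did 4 of 5 H3K9 demethylases (median 0.40), Kdm4b just outside the threshold at 6.50 and 8.98 CPM (0.47). Kdm3b, at 20.6 and 17.7 CPM (-0.21), and Kdm2b, at 13.5 and 13.2 CPM (-0.03), were the 2 demethylase genes below 0. Of the PRDM genes, Prdm1 (chr10:44437177-44528501, reverse strand), a transcriptional repressor also called Blimp1 and known from immature gut epithelium, was at 3.92 and 7.72 CPM, 1.97-fold higher (0.98, 0.73 to 1.22). Prdm1 was counted only through its knockout level, as its control level was under 5 CPM. Prdm10 was at 7.65 and 5.66 CPM (-0.43), and Prdm2 and Prdm4 lay between.

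The median transcript length was 6406 bases for the measured demethylase genes, 4267 for the methyltransferase genes and 3248 for all genes, and ratios moved with length: across the 54 genes, which share both libraries, Spearman's rho of length and log2 ratio was 0.42, and 0.23 across all genes. Set against genes of like length by subtracting their median, 11 of 14 demethylase genes (median 0.26) and 10 of 36 methyltransferase genes (median -0.13) lay above 0. By this measure 3 of the 54 genes were 1.5-fold higher (9.2% of all genes) and 5 lower (7.9%), and their median was -0.04. The sign of the median turned for the H3K4 methyltransferases (-0.03, with 3 of 8 above 0), for Kdm2a and Kdm2b, the measured H3K36 demethylases (0.05 before and -0.11 after), and for the H4K20 methyltransferases (-0.08 before and 0.03 after). With 3′ counts, the part of length in the ratios was not tested further. No source used here says whether reads were counted by strand. The counting intervals thus do not cover reads of genes that overlap exons on the opposite strand. Such overlap was annotated for Suv39h1, Suv39h2, Prmt3, Prmt7, Ezh2, Nsd2 and Kdm6b (the antisense Kdm6bos). It was also annotated for other genes, among them Smyd2, Kmt2e, Kmt2c, Prmt6, Kdm5a and Kdm7a.

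Each cell of 5000 or more UMIs was placed in a phase class by scores over S phase and over G2 and M phase genes, after thinning to 5000 UMIs. None of the 72 genes is in either list. In the control library 1366 of 2487 cells were G1-like (54.9%), 817 S-like (32.9%) and 304 G2M-like (12.2%), and in the knockout library 1099 of 1387 (79.2%), 168 (12.1%) and 120 (8.65%). On unthinned counts the G1-like shares were 55.2% and 80.6%. The shallower cells left out numbered 142 and 94, and 655 control cells (26.3%) and 248 knockout cells (17.9%) had a score within 0.05 of a boundary. Median UMIs per cell differed between classes, from 23392.5 and 23829 in G1-like cells to 32188 and 33723 in G2M-like cells. As the score genes themselves were lower in the knockout library, the classes are ranges of a score, and the part of free RNA in them was not tested.

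Both SUV39H genes, but only single members of the EZH and NSD families, were higher in S-like cells by 1.5-fold. S-like over G1-like levels were 1.5-fold or more higher in both libraries for 4 of 54 genes, where 5.16% of all genes were: Suv39h2, Suv39h1, Ezh2 and Nsd2. Ezh2 was at 34.5 CPM in G1-like and 78.8 CPM in S-like control cells, and at 36.4 and 79.4 CPM in knockout cells, 2.29-fold and 2.18-fold. Suv39h2 was at 5.51 and 14.7 CPM in control and at 3.62 and 13.1 CPM in knockout cells. In fold, both steps (2.67 and 3.61) were larger than those of Suv39h1 (2.16 and 1.95). Suv39h1 was at 9.88 and 21.4 CPM and at 8.12 and 15.8 CPM. Nsd2, which dimethylates H3K36, was at 15.7 and 35.5 CPM and at 17.7 and 31.9 CPM. The count is near the background share. The relatives of these genes, Ezh1, Ehmt1, Ehmt2, Nsd1, Nsd3 and Setd2, did not pass, and Ezh1 had log2 ratios of -0.29 and -0.69.

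In G2M-like cells the same 4 genes were 1.5-fold or more above G1-like cells in both libraries (6.7% of all genes). Suv39h2 reached 27.1 CPM in control and 16.3 CPM in knockout G2M-like cells, 4.93-fold and 4.51-fold over G1-like cells. Suv39h1 reached 35.0 and 28.2 CPM, and Ezh2 86.6 and 86.8 CPM. Kmt5a, whose protein is known to accumulate in mitosis, was at 46.1 CPM in G1-like and 81.7 CPM in G2M-like control cells (1.77-fold) and at 45.8 and 57.4 CPM in knockout cells (1.25-fold), so it passed in 1 library. By the smaller of the 2 libraries' ratios Setd6 came next after the 4, at 32.8 and 47.7 CPM in control and 17.2 and 25.3 CPM in knockout cells.

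Kdm5b ran the other way. It was at 37.4 CPM in G1-like, 22.9 CPM in S-like and 14.3 CPM in G2M-like control cells, and at 53.3, 28.7 and 23.8 CPM in knockout cells. It was the 1 gene of 54 that was 1.5-fold or more lower in both libraries, in S-like cells (1.56% of all genes) and in G2M-like cells (4.71%). Kdm7a, a demethylase of H3K9 and H3K27, was lower in S-like cells by smaller amounts, at 18.9 and 12.9 CPM in control and 24.4 and 15 CPM in knockout cells. Prmt2 was at 27.3 and 19.9 CPM and at 38.1 and 22.9 CPM. Setd7, an H3K4 monomethyltransferase, was at 9.55 CPM in G1-like and 7.29 CPM in G2M-like control cells and at 11.8 and 5.60 CPM in knockout cells. The counts for S-like and G2M-like cells were the same without cells of shared barcodes.

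**Figure D3:**
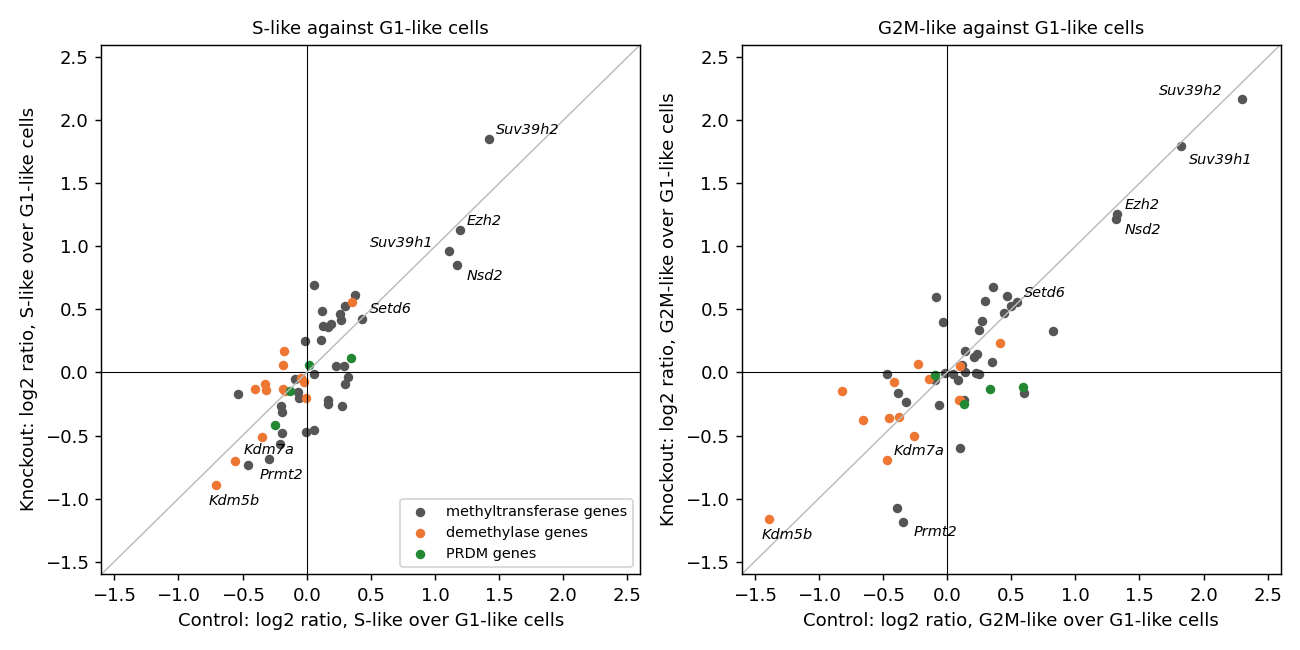
Log2 ratio of S-like (left) and G2M-like (right) over G1-like CPM for the 54 measured genes, control on the horizontal and knockout on the vertical axis, with the line of equality. Suv39h2, Suv39h1, Ezh2 and Nsd2 stand at the upper right and Kdm5b at the lower left of both panels.

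Within a phase class, Ezh2 and Nsd2 did not differ between the libraries beyond counting error, while Setd6 and Smyd5 did. Ezh2 ratios were 0.08 in G1-like, 0.01 in S-like and 0.00 in G2M-like cells, with intervals of -0.04 to 0.20, -0.15 to 0.17 and -0.18 to 0.18. Those of Nsd2 were 0.17 (-0.01 to 0.35), -0.15 (-0.42 to 0.10) and 0.07 (-0.20 to 0.33). Setd6, in contrast, was at 32.8 and 17.2 CPM in G1-like control and knockout cells, at 44.3 and 23.1 CPM in S-like and at 47.7 and 25.3 CPM in G2M-like cells, with ratios of -0.93, -0.94 and -0.91. Smyd5 was at 28.4 and 14.3, 31.1 and 18.4, and 32.9 and 15.6 CPM in the same order. Kdm6b was higher in each class, with ratios of 0.73, 0.57 and 0.82, and Kdm5b had ratios of 0.51, 0.32 and 0.74.

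By class, 3 genes were higher (8.44% of all genes) and 4 lower (8.35%) in G1-like cells, 4 (7.62%) and 4 (9.79%) in S-like cells, and 7 (9.57%) and 5 (15.4%) in G2M-like cells. The smaller classes hold fewer UMIs and wider intervals. Setd6 and Smyd5 were among the lower genes in all 3 classes. Dot1l was the 1 methyltransferase gene past 1.5-fold higher in G1-like cells, with a log2 ratio of 0.62. It had 0.07 in S-like and -0.15 in G2M-like cells. In S-like cells Setd7 was the methyltransferase gene past 1.5-fold higher (0.67, 0.17 to 1.15). In G2M-like cells they were Smyd3 (0.63, 0.36 to 0.89) and Setd4 (0.71, -0.01 to 1.41).

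With control cells weighted to the phase shares of the knockout library, 2 genes were higher (7.87% of all genes), Prdm1 (0.95) and Kdm6b (0.72), and 4 lower (7.51%), Smyd5 (-0.97), Setd6 (-0.93), Prmt7 (-0.70) and Prmt3 (-0.59). Suv39h2 moved from -0.90 to -0.54 and Suv39h1 from -0.61 to -0.32, both then inside 1.5-fold. Ezh2 came to 0.05 and Nsd2 to 0.09. Prmt5 (-0.53), Kdm5b (0.51) and Kdm5d (0.48) also ended inside the threshold, by smaller shifts.

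**Figure D4:**
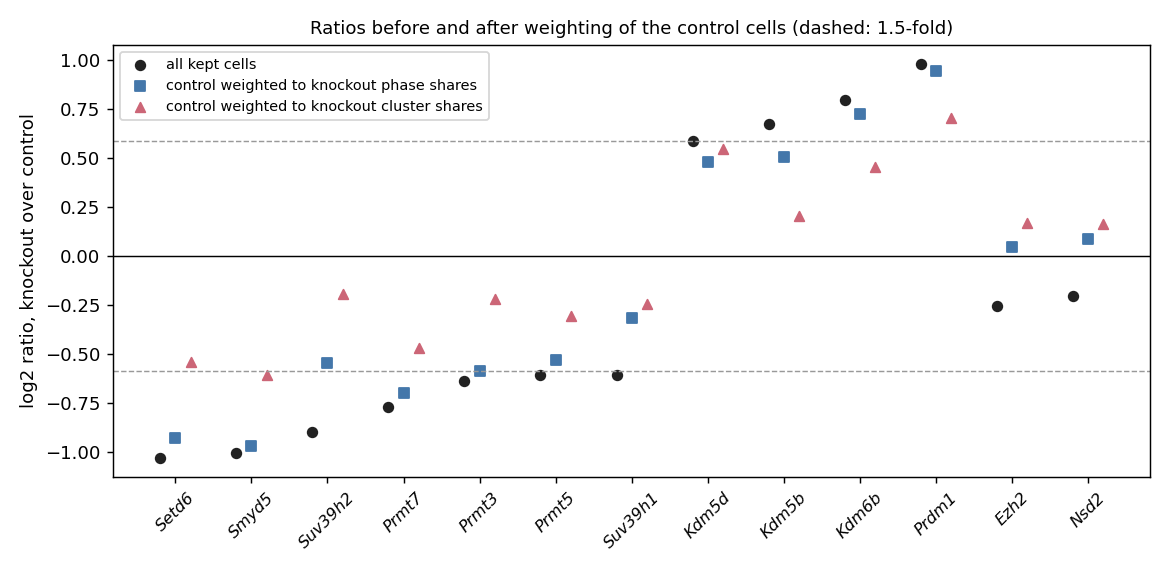
Log2 ratio of knockout over control for the 11 genes past 1.5-fold and for Ezh2 and Nsd2, over all kept cells (circles), with control weighted to the knockout phase shares (squares) and to the knockout cluster shares (triangles). Dashed lines mark 1.5-fold. Smyd5 and Prdm1 are past it in all 3 forms.

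Cells were also clustered without the 72 genes, and 9 of 12 clusters held 100 or more cells. One of them, cluster 7 (209 cells), had a median of 3654 UMIs and was left unnamed, and 36 of 54 genes had their highest level there (27.3% of all genes). Kmt2b, an H3K4 methyltransferase, was at 29.1 CPM there and at 6.59 CPM in cluster 9. Without it, 19 of 54 genes differed 2-fold or more between the highest and lowest cluster, a smaller share than the 46.3% of all genes. Cluster 10, led by G2 and M phase genes such as Nusap1 and Ube2c, held the highest level of 13 genes (20.7%). The clusters draw on the libraries unequally, so ranges were read within a library, over the clusters of 50 or more of its cells without cluster 7 (6 in control and 5 in knockout). Suv39h2 had the widest range of the genes described here. It was at 27.6 CPM in cluster 10 and 1.88 CPM in cluster 2 of the control library (14.7-fold). In the knockout library it was at 20.5 CPM in cluster 10 and 3.50 CPM in cluster 1 (5.87-fold). The control range rests on few UMIs at its low end, where cluster 2 held 97 control cells. Suv39h1, Ezh2 and Nsd2 were also highest in cluster 10 of each library, Ezh2 at 102 and 103 CPM. Kdm5b was lowest in cluster 10 of each library, at 12.8 and 20.3 CPM, and reached 44.1 CPM in cluster 1 of the control and 58.3 CPM in cluster 2 of the knockout library.

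Setd6 and Smyd5 were lowest in cluster 2, led by Prss56, in both libraries. Setd6 was at 12.7 CPM in cluster 2 and 48.7 CPM in cluster 10 of the control library, and at 12.5 and 28.2 CPM in the knockout library. Its control level was 45.8 CPM in cluster 9, led by the enterocyte genes Cldn15 and Fabp2 and with 50.2% S-like cells. Smyd5 ran from 12.2 CPM in cluster 2 to 36.8 CPM in cluster 5 of the control library, and from 9.71 to 16.7 CPM in the knockout library.

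Kdm6b had its highest level in a different cluster of each library. Control cells had most in cluster 1 (64.4 CPM) and least in cluster 9 (26.6 CPM), a range of 2.42-fold, with 53.1 CPM in cluster 2. In knockout cells it was at 119 CPM in cluster 2 and 52.4 CPM in cluster 10, a range of 2.27-fold. Prdm1 was highest in cluster 3 of the knockout library, led by Inhba and Sprr1a, at 10.6 CPM.

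**Figure D5:**
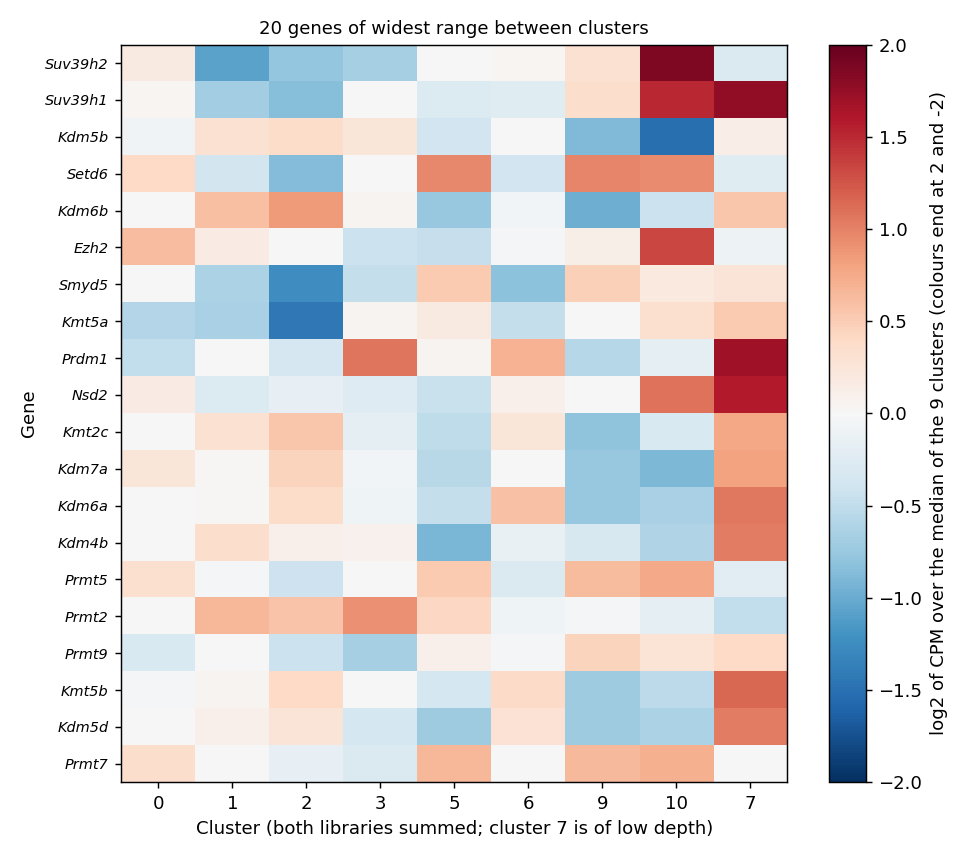
Level of the 20 genes of widest range in the 9 clusters of 100 or more cells, as log2 of CPM over the median of the clusters, both libraries summed. Suv39h2, Suv39h1, Ezh2 and Nsd2 are high in cluster 10, where Kdm5b is low. Cluster 7 is of low depth.

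Cluster 9 held 471 control and 21 knockout cells, cluster 5 held 426 and 9, and cluster 3 held 43 and 390, so type and library cannot be told apart in them. With control weighted to the cluster shares of the knockout library, 1 gene was higher (4.94% of all genes), Prdm1 (0.70), and 1 lower (2.56%), Smyd5 (-0.61). The weighted control rests in part on few cells, with 43 control cells in cluster 3, 44 in cluster 6 and 4 in cluster 4. These clusters held 390, 120 and 27 knockout cells, and no interval was computed for the weighted ratios. Setd6 came to -0.54, Prmt7 to -0.47, Kdm6b to 0.46 and Kdm5b to 0.20. The median of the arginine methyltransferases came to -0.18, with Prmt3 at -0.22, Prmt5 at -0.31, Prmt1 at -0.01 and Prmt9 at 0.25. That of the H3K9 methyltransferases came to -0.08, with Suv39h2 at -0.19, Suv39h1 at -0.24, Ehmt1 at 0.05 and Ehmt2 at 0.03. By this weighting all 14 demethylase genes lay above 0 (median 0.20), and 22 of 36 methyltransferase genes (median 0.05), where 50.9% of all genes did. The methyltransferase count thus moved to the other side of its middle with the weighting, whereas 11 to 14 of 14 demethylase genes lay above 0 in each filter, scaling, phase class, cluster and weighting computed.

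Clusters 1, 2 and 10 held enough cells of both libraries for ratios within a cluster. Genes past 1.5-fold numbered 1 higher (7.29% of all genes) and 1 lower (3.42%) in cluster 1, 9 (11.4%) and 1 (6.06%) in cluster 2, and 6 (9%) and 4 (14.7%) in cluster 10, beside 14 (18.2%) and 11 (28.8%) in the shallow cluster 7. In cluster 1 (266 and 472 cells), Kdm6b was at 64.4 and 91.0 CPM (0.50) and Setd6 at 21.3 and 15.6 CPM (-0.45). In cluster 10 (475 and 130 cells), Setd6 was at 48.7 and 28.2 CPM (-0.79) and Smyd5 at 32.4 and 16.0 CPM (-1.02), while Ezh2 was level at 102 and 103 CPM (0.01). In cluster 2 (97 and 190 cells), Kdm6b was at 53.1 and 119 CPM (1.16, 0.87 to 1.47) and Setd6 at 12.7 and 12.5 CPM (-0.02, -0.73 to 0.72). The Setd6 ratio was thus smaller in cluster 1 (-0.76 to -0.13) than over all cells (-1.03), and inside 1.5-fold there. It was past 1.5-fold in cluster 10 and not detectable in cluster 2. Among methyltransferase genes, Smyd3 was higher in cluster 10, at 32.4 and 53.9 CPM (0.73, 0.50 to 0.96). In cluster 2, Setd4 was higher, at 3.76 and 10.5 CPM (1.48, 0.37 to 2.78). Suv39h2, Prmt9, Setd1b, Ezh1 and Kmt2c were also past 1.5-fold higher in cluster 2, with intervals that included 0.

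Partners of the enzymes mostly stayed within 1.5-fold. Of 8 measured PRC2 partners, 1 was 1.5-fold higher and none lower (median log2 ratio -0.07): Jarid2, which recruits PRC2, at 10.3 CPM in control and 16.2 CPM in knockout cells (0.66). The core subunit Eed was at 54.1 and 42.9 CPM (-0.33). Of 12 COMPASS partners, which serve the KMT2 and SETD1 enzymes, none passed in either direction, but their median was -0.28, beside -0.05 for all genes, and their sum 567 and 462 CPM. Psip1 was at 86.6 and 60.2 CPM (-0.52) and Men1, the menin gene, at 19.6 and 14.0 CPM (-0.49).

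Among 9 measured methyltransferases outside the symbol rule, Mecom, a PRDM family member, was higher, at 11.8 and 19.8 CPM (0.74), and Mettl13, which methylates a translation elongation factor, was lower, at 14.2 and 7.51 CPM (-0.92). Of 8 other demethylase or related dioxygenase genes, 2 were lower and none higher: the ribosomal oxygenases Riox2, at 33.9 and 20.6 CPM (-0.71), and Riox1, at 16.4 and 10.7 CPM (-0.61). None of 5 genes of methyl donor supply passed, with Mat2a, which makes S-adenosylmethionine, at 456 and 315 CPM (-0.53) and its regulatory partner Mat2b at 98.3 and 77.0 CPM (-0.35). Of 11 readers of methyl marks, 2 were lower and none higher. Uhrf1, which binds methylated H3K9 and hemimethylated DNA and is also on the S phase list, was at 30.8 and 12.2 CPM (-1.34, and -0.48 with phase shares weighted), and L3mbtl2 at 17.9 and 8.36 CPM (-1.10, and -0.96 weighted).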

How the data were processed

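The authors deposited UMI counts per gene and cell, 1 matrix per group, which per the file headers come from Cell Ranger 3.1.0 and are on mm10, per the submitters' processing notes. The annotation release and strand setting were not given in the sources used. Of 31053 identifiers, 30934 were found in GENCODE release M21, used for positions, lengths and overlaps. Promoter windows are RefSeq's on GRCm38.p6.

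The genes and lists were chosen with earlier results of these data known. Cells needed at least 1000 genes and 2000 UMIs and no more than 20% mitochondrial UMIs. Scrublet's automatic threshold marked only 12 and 3 cells, so the highest scores were removed instead (0.8% per 1000 cells, 58 and 18 cells). The filter removed 931 of 3618 and 579 of 2078 barcodes. Counts were summed per library, phase class (scanpy 1.11.5) or cluster (leidenalg 0.10.2, resolution 0.8, 2000 variable genes, 30 components), and scaled to CPM over all genes. Intervals are exact Poisson for CPM and exact conditional binomial for ratios. In unweighted ratios a count of 0 was set to 3 counts, and no pseudocount was added to other counts. Genes leading a cluster were ranked with a small constant added to each CPM. Genes of a mean of 5 or more CPM were counted, and the code was tested on simulated data. TMM factors came from edgeR 4.0.16. Named genes were those past 1.5-fold or nearest to it, the 10 of highest level, the extremes over phases and clusters, a fixed set of known enzymes, and up to 2 per pathway list. Other genes named were chosen after their values were seen. Alternatives covered filters, doublets, shared barcodes, level, scaling, length, phase calls and weighting. Columns without a sample in use: 0.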

Additional observations from a re-analysis of the deposited data

How the results depend on the processing

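With 1 library per group, neither the spread between cultures nor the effect of leaving out a replicate could be measured. No paired analysis was possible because the pooled columns carry no replicate numbers. All alternatives listed in advance were run. At 2-fold, 0 genes were higher and 2 lower in the knockout library, and in S-like cells 2 were higher (Ezh2 and Suv39h2) and 0 lower in both libraries. Genes lower in S-like cells numbered 2 with phase calls on unthinned counts, and 3 (Kdm5b, Kdm7a and Setd7) where S-like cells were those of highest UMI share over the list. By that call 3 genes were lower in G2M-like cells. Cluster weighting in place of phase weighting gave 1 higher and 1 lower. The class alternatives were chosen after seeing the data. The demethylase median was 0.20 by cluster weighting, 0.21 within G2M-like cells and 0.22 within cluster 1. The methyltransferase genes above 0 numbered 22 by cluster weighting and 22 within cluster 1, and their median was 0.047 by cluster weighting, 0.093 within cluster 1 and 0.050 within cluster 2. The cause was not tested. Under the other alternatives the counts stayed within 1.5 times and the medians within 0.135 on the log2 scale. Of 38 named genes, 0 changed direction under 5 alternatives of filter, doublets, barcodes and scaling. Few UMIs limit the 18 genes under 5 CPM and the ratios within cluster 2 and G2M-like cells.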
